A study of Mus musculus with 16 samples.

Results

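Gonads of wild-type mouse embryos at embryonic day 12.5 (E12.5) were compared between the sexes: 2 arrays of testis RNA and 2 arrays of ovary RNA, 4 of the 16 arrays of the study. Each array is an Affymetrix mouse chip that reads transcripts as probe-set intensities, and 11849 autosomal genes were tested. The other groups held wild-type gonads at E14.5 and gonads of Wnt4 knock-out embryos at both stages, again with 2 arrays per sex, stage and genotype. Knock-out testis against knock-out ovary at E12.5 and wild-type testis against ovary at E14.5 are used here beside the main comparison. The only allele named is the knock-out of Wnt4, and no strain and no number of embryos per array is given in the labels used here. Stages were assigned from the morphology of the embryos, and gonads were kept frozen until genotyping. Titles of the male samples say ovary where their source says testis. They were treated as testis, as Xist and Y-linked transcripts also had them. The arrays of a group are called biological replicates, with no more said of their origin, so every p-value measures only the spread between these arrays. In bulk RNA of a whole gonad, fewer cells of a type and less RNA per cell cannot be told apart.

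The gonad begins as a bipotential ridge. In XY embryos Sry switches on Sox9 in supporting cells, which become Sertoli cells, form cords and secrete signals such as anti-Müllerian hormone, desert hedgehog and prostaglandin D. In XX embryos the supporting cells become pre-granulosa cells under WNT4, RSPO1 and beta-catenin signalling and the transcription factor FOXL2, and follistatin is a known target of that branch. Germ cells colonise both kinds of gonad, and fetal Leydig cells that make androgens appear in the testis interstitium.

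Some arrays stood apart before any gene was tested. Mean intensity lay between 272 and 285 on the 4 arrays. The wild-type testis arrays were almost identical, with a standard deviation of 0.142 for their log2 difference over genes, against 0.335 to 0.587 for the replicate pairs of the other 7 groups. The count of genes called in this comparison, and those of changes between genotypes and stages, are therefore also given with these 2 arrays averaged and counted as 1 sample. Ovary replicate 1 correlated more closely over genes with testis replicate 1 (r = 0.988) than with ovary replicate 2 (r = 0.971). Xist read 4206 and 3929 in the ovary arrays and 5.92 and 5.98 in the testis arrays. Eif2s3y, Kdm5d and Uty, which are Y-linked, averaged 18.2% of the testis level in ovary replicate 1 and 6.95% in ovary replicate 2. This ratio, called the share of male RNA below, rests on those genes alone and was not tested on other transcripts. The summed Sertoli genes of the list below read 1579 in ovary replicate 1 and 1846 in ovary replicate 2. Single members ran either way between these arrays, among them Ptgds (80.7 and 187) and Vnn1 (121 and 92.1). The 3'/5' ratio of control transcripts, a sign of RNA integrity, was 1.76 in ovary replicate 2 and 1.09 to 1.13 on the other 3 arrays. The part of these differences in the results was not tested beyond the values given with each result.

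At E12.5, 17 autosomal genes were higher in testis and 47 were higher in ovary (limma, Benjamini-Hochberg adjusted p under 0.05 over all genes). That is 0.143% and 0.397% of the genes tested, and 0.54% for both directions together. Fold changes here and below are of intensity + 4, so for dim genes they are smaller than the ratio of the intensities printed. The rises in testis ran from 1.92-fold for the tetraspanin gene Tspan32 to 13.6-fold for the cystatin-domain gene Cstdc1. The excess in ovary ran from 1.63-fold for Arhgap29 to 22.0-fold for the small proline-rich protein gene Sprr2d. All 64 had arrays that did not overlap between the sexes, as did 57.6% of all genes tested. The median log2 difference over all autosomal genes, testis minus ovary, was -0.115, and 62.4% of genes were nominally higher in ovary. With the testis arrays averaged, 11 genes passed: Cstdc1, Adhfe1, Gjb2 and Shbg in testis, and Sprr2d, Phlda2, Gbp2b, Lzts1, Msx1, Snx31 and Cfap161 in ovary. Leaving out ovary replicate 1 raised the count to 1506, and leaving out ovary replicate 2 lowered it to 18. It was 11 without testis replicate 1 and 9 without testis replicate 2. The spread behind these tests comes from all 16 arrays. A fit of the 4 arrays alone called 12 genes, 7 higher in testis and 5 in ovary, of which 7 were among the 64.

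**Figure D1:**
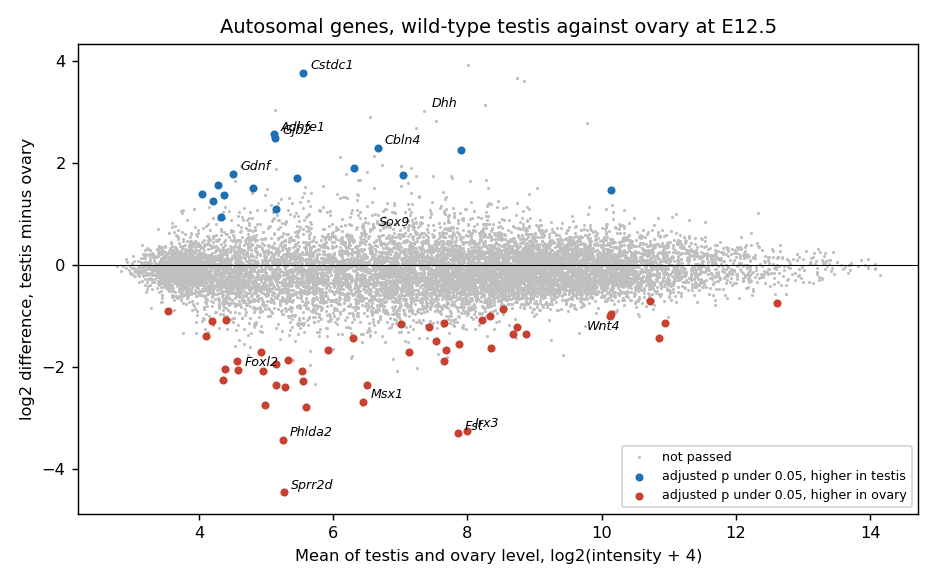
Each point is an autosomal gene: the horizontal axis is the mean of its testis and ovary level and the vertical axis is the log2 difference, testis minus ovary, both on the scale of log2(intensity + 4). The 17 genes higher in testis are blue and the 47 higher in ovary are red. Genes that did not pass are grey, and some lie as far out, among them Defb19 at 3.91. Sox9, Dhh and Wnt4 are labelled among the grey points.

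Of 22 measured genes known from Sertoli cells, 3 were higher in testis and 19 did not pass the test. The 3 were Vnn1, Cbln4 and Gdnf. Cbln4, a secreted cerebellin, read 215 and 224 in testis and 43.4 and 40.1 in ovary. The testis arrays lay 4.88-fold above the ovary arrays (log2 difference 2.29, SE 0.46, limma adjusted p = 0.0429). Gdnf, a growth factor that later sustains spermatogonial stem cells, read 34.2 and 41.9 in testis and 6.59 and 9.94 in ovary, 3.45-fold apart (adjusted p = 0.0413 by limma). In neither gene did the sexes overlap, as in 57.6% of all genes tested. Vnn1, the pantetheinase vanin 1, read 529 and 505 in testis and 121 and 92.1 in ovary, 4.75-fold apart (limma adjusted p = 0.00473). With the testis arrays averaged none of the 3 passed, with adjusted p of 0.398, 0.377 and 0.0898 for Cbln4, Gdnf and Vnn1. Without ovary replicate 2 the values were 0.309, 0.166 and 0.0772, and the fold changes stayed within 1.5 times of those above.

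The larger differences on that list had larger standard errors and did not pass. Defb19, a beta-defensin of Sertoli cells, read 1022 and 936 in testis and 48.7 and 77.1 in ovary, a 15.02-fold difference (SE 0.85 on the log2 scale) with an adjusted p of 0.0596 in limma. Ptgds, the prostaglandin D synthase that acts beside SOX9, read 1560 and 1514 against 80.7 and 187 (12.1-fold, adjusted p = 0.121). Dhh, the hedgehog ligand of Sertoli cells, read 509 and 419 against 53.0 and 54.0 (8.11-fold, adjusted p = 0.0992). In each of these genes both testis arrays lay far above both ovary arrays. Aard, an alanine- and arginine-rich protein of Sertoli cells, was 6.91-fold higher with an adjusted p of 0.0813. Unadjusted p-values under 0.05 toward testis were reached by 4.42% of all autosomal genes, and toward ovary by 12.1%. Of the 22 members, 13 were at least 2-fold higher in testis, 10 of them without passing, and 160 of all autosomal genes (1.35%) were as far apart in that direction. The list's median log2 difference was 1.73, all 22 were above 0, and the summed intensity of the list was 10290 and 9804 in testis and 1579 and 1846 in ovary.

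Sox9 and Fgf9, at the head of the testis branch, and the Sertoli cell product Amh did not pass at this stage. Sox9 read 112 and 118 in testis and 94.9 and 50.6 in ovary (log2 difference 0.70, SE 0.48, adjusted p = 0.462). Fgf9, a growth factor that sustains Sox9, read 38.5 and 45.5 against 26.6 and 31.2 (adjusted p = 0.46). Amh read 11.1 and 10.8 in testis and 3.03 and 10.6 in ovary, and the testis values lay near the median of all probe sets on those arrays (10.5 and 10.4). A p above the threshold does not show that the sexes were equal in these 3 genes.

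**Figure D2:**
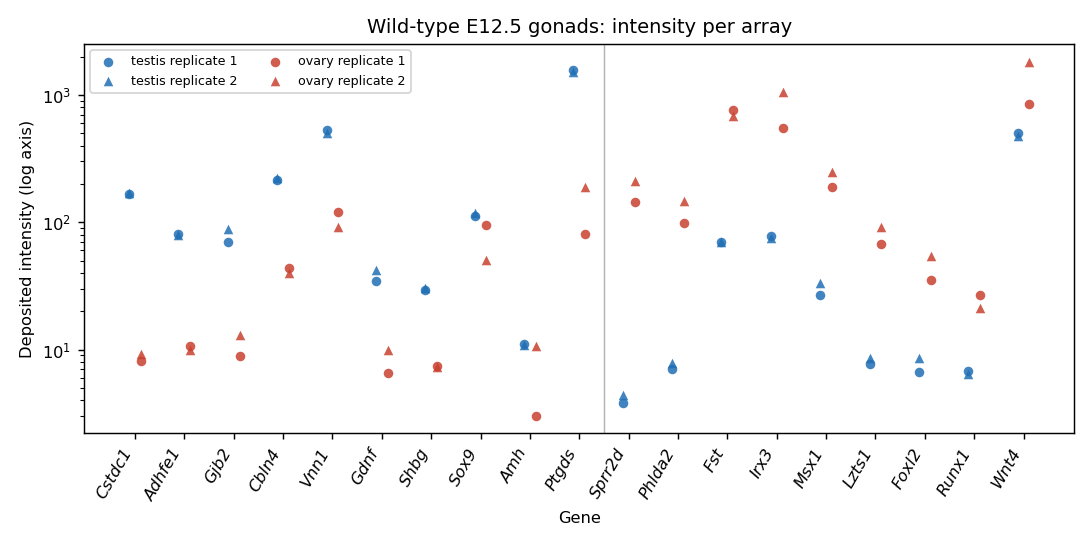
Deposited intensity on a log axis for 19 genes on the 4 arrays (blue, testis; red, ovary; circles, replicate 1; triangles, replicate 2). Genes with a higher mean in testis are left of the line and those with a higher mean in ovary right of it, passed or not. The testis symbols nearly coincide throughout, and the ovary symbols lie far apart in Amh, Ptgds and Wnt4.

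Among the genes that passed, the largest rises in testis were those of Cstdc1, Adhfe1 and Gjb2, which are not on the Sertoli list. Cstdc1 read 165 and 170.3 in testis and 8.10 and 9.29 in ovary, with a log2 difference of 3.76 (SE 0.41, limma adjusted p = 0.000668). Adhfe1, a mitochondrial hydroxyacid-oxoacid transhydrogenase, read 81.3 and 78.8 against 10.8 and 9.85 (5.88-fold, SE 0.21 on the log2 scale, adjusted p = 0.000143). With the mean of its probe sets the log2 difference of Adhfe1 was 1.77 and still passed (adjusted p = 0.000571). Gjb2, the gap junction protein connexin 26, read 69.96 and 87.8 against 8.82 and 12.9 (5.60-fold, adjusted p = 0.000395). Cstdc1, Adhfe1 and Gjb2 were near the median of the array in ovary and clearly above it in testis, and all passed with the testis arrays averaged. Shbg, which encodes the androgen-binding protein that Sertoli cells secrete, read 29.2 and 30.2 in testis and 7.37 and 7.31 in ovary (2.97-fold, adjusted p = 0.00227, and 0.0473 with the testis arrays averaged).

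Tdgf1 (Cripto), the co-receptor of Nodal that marks male germ cells, read 24.2 and 24.8 in testis and 7.32 and 8.66 in ovary (2.38-fold, limma adjusted p = 0.00458). Lefty2, a Nodal antagonist, read 129 and 166 against 45.2 and 29.4 (3.72-fold, adjusted p = 0.0133). Both lie on the list of male germ cell and piRNA genes, of which 2 of 11 were higher in testis and none in ovary. That list's median log2 difference was -0.0032, with 5 members above 0 and 6 below. Lefty1 was 2.05-fold higher with an adjusted p of 0.188. Among general germ cell genes 0 of 13 passed in limma, with 1 at an unadjusted p under 0.05. Dazl read 946 and 893 against 1143 and 1393, Ddx4 261 and 250.4 against 342 and 234, and Pou5f1 174 and 215 against 149 and 138, testis first.

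Of the remaining testis genes none passed with the testis arrays averaged. Aldh1a1, a retinaldehyde dehydrogenase, read 1932 and 1780 in testis and 573 and 777 in ovary (2.77-fold, limma adjusted p = 0.0375). Prss35, a protease-like secreted protein, was 3.37-fold higher (239 and 235 against 76.9 and 59.3), and Tmem100 was 2.85-fold higher (40.4 and 45.8 against 12.3 and 12.7). Cela3b (3.25-fold), Ctrb1 (2.63-fold) and Tmprss13 (2.59-fold), which encode serine proteases, each had both testis arrays above both ovary arrays. Across all genes tested, 57.6% did not overlap between the sexes. Cela3b is known as a pancreatic elastase, and its other probe sets gave log2 differences of -0.13 and 0.24 against 1.70 for the one used. Tspan32 (1.92-fold) and Hapln3, a link protein of hyaluronan (2.15-fold), complete the 17 and are named after their values were seen. In 4 of the 17 both ovary arrays were below the median of all probe sets on the array.

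Of 14 measured genes of ovarian supporting cells, 5 were higher in ovary and 9 did not pass. The 5 were Msx1, Runx1, Fst, Irx3 and Foxl2. Fst, which encodes the activin-binding protein follistatin, read 69.5 and 70.1 in testis and 759.8 and 688 in ovary. It was 9.85-fold higher in ovary (log2 difference -3.30, SE 0.54, limma adjusted p = 0.0143), and a second probe set of the gene gave 6.58 and 9.13 against 143.5 and 173. Irx3, an Iroquois homeobox factor of pre-granulosa cells, read 78.0 and 75.5 against 554 and 1053 (9.51-fold, adjusted p = 0.0357). The ovary arrays of Irx3 lay further apart than those of Fst, and in both genes they were clear of the testis arrays. Foxl2, the forkhead factor of granulosa cells, read 6.67 and 8.53 in testis and 35.4 and 54.6 in ovary (4.16-fold, adjusted p = 0.0478).

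Msx1, a homeobox factor downstream of BMP signalling, had the smallest p on the list: 27.1 and 33.5 in testis and 189 and 246 in ovary (6.44-fold, SE 0.26 on the log2 scale, limma adjusted p = 0.000348). Runx1, a transcription factor of early supporting cells, read 6.79 and 6.47 against 26.9 and 21.2 (2.63-fold, adjusted p = 0.00227). Its 3 other probe sets gave log2 differences of -0.45, -1.30 and -0.21 beside -1.39. Of the 5 genes only Msx1 passed with the testis arrays averaged; Fst was at 0.17, Irx3 at 0.341, Foxl2 at 0.415 and Runx1 at 0.0555. Without ovary replicate 2, Msx1 (0.00561) and Runx1 (0.00934) still passed, and Fst (0.11), Irx3 (0.334) and Foxl2 (0.433) did not. All 14 members were below 0, their median log2 difference was -1.37, and 9 were at least 2-fold higher in ovary, as were 267 of all autosomal genes (2.25%). The summed intensity of the list was 2750 and 2676 in testis and 5807 and 7533 in ovary.

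The signals upstream of these factors did not pass. Wnt4 itself read 502 and 473 in testis and 844 and 1822 in ovary (2.53-fold, log2 difference -1.34, SE 0.36, limma adjusted p = 0.123). Its second probe set gave 189 and 239 against 392 and 759. Rspo1, which amplifies WNT signals, read 133 and 149 against 264 and 406 (adjusted p = 0.101), and Bmp2 31.1 and 45.6 against 124 and 156 (adjusted p = 0.0877). In all of these genes both ovary arrays were above both testis arrays, and the sexes did not overlap in 57.6% of all genes tested. Among 13 feedback targets of WNT and beta-catenin, 0 passed in limma, and the median log2 difference was -0.64. An unadjusted p under 0.05 was reached by 6 of them toward ovary and none toward testis. Over all autosomal genes those shares were 12.1% and 4.42%. Sp5 came closest, with 11.8 and 11.99 in testis and 23.8 and 57.5 in ovary (adjusted p = 0.0596). Axin2 read 89.8 and 90.9 against 171 and 574 (adjusted p = 0.118), with ovary replicate 2 far above replicate 1.

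The 2 genes with the largest excess in ovary among those that passed, Sprr2d and Phlda2, were not on the supporting-cell list. Sprr2d, known from cornified epithelia, read 3.78 and 4.43 in testis and 144 and 211 in ovary (log2 difference -4.46, SE 0.54, limma adjusted p = 0.00171). Phlda2, an imprinted gene that restrains placental growth, read 7.01 and 7.83 against 97.7 and 146 (10.8-fold, adjusted p = 0.000265). Both were near background in testis and far above it in ovary. Gbp2b, an interferon-inducible GTPase, read 14.8 and 13.8 against 129.9 and 115 (6.89-fold), and Lzts1, a leucine zipper protein, 7.72 and 8.63 against 66.8 and 91.0 (6.74-fold). Snx31, a sorting nexin, read 5.29 and 5.32 against 43.0 and 38.6 (4.81-fold). For these genes the ovary arrays lay within 1.5 times of each other, and all passed with the testis arrays averaged. Cfap161, a protein of motile cilia, read 6.50 and 6.09 against 33.3 and 44.1 (4.12-fold, adjusted p = 0.00208). Adam8, a membrane metalloprotease, read 17.5 and 17.2 against 95.8 and 103 (4.84-fold, adjusted p = 0.00252).

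A further set rested more on ovary replicate 2, the array with the high 3'/5' ratio. Zbtb7c, a zinc finger protein, read 34.5 and 31.6 in testis and 103 and 329.7 in ovary (5.12-fold, limma adjusted p = 0.0429), and without ovary replicate 2 it was 2.90-fold higher (adjusted p = 0.428). With the mean of its probe sets Zbtb7c had a log2 difference of -1.58 and did not pass (adjusted p = 0.136). Tfcp2l1, a transcription factor of pluripotent cells and kidney tubules, read 11.3 and 10.8 against 48.7 and 110.2 (5.14-fold, and 3.50-fold without that array). Insyn2b read 10.4 and 10.4 against 36.7 and 87.4 (4.24-fold). Aldh1a3, the second retinaldehyde dehydrogenase to pass, read 17.8 and 17.9 against 61.6 and 126 (4.23-fold), while its other probe sets gave log2 differences of -0.27 and -0.08. In all of these the second ovary array was more than 2 times the first. Ovary replicate 2 was the higher of the pair in 39 of the 47 ovary genes, and in 60.9% of all autosomal genes.

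Of the other 32 ovary genes 4 were on a list, Runx1 and the following 3. Lhx9, a LIM homeobox factor needed to form the gonad, read 816 and 755 in testis and 1393 and 1781 in ovary (2.00-fold, limma adjusted p = 0.0478). Fgfr2, the receptor of FGF9, read 280 and 271 against 539 and 766 (2.31-fold, adjusted p = 0.0296), but its second probe set read 703 and 96.8 in the ovary arrays and 292 and 273 in testis. Cdh16, a cadherin of kidney and duct epithelium, read 172 and 185 against 445 and 707 (3.10-fold, adjusted p = 0.0413). The remaining 28 ranged from 1.63-fold to 5.28-fold, the highest being the clone-named gene D630039A03Rik (11.9 and 12.5 against 52.5 and 125). Examples named after their values were seen are Podxl, the sialomucin podocalyxin (1108 and 1096 against 2337 and 3796, 2.70-fold), and the neuronal membrane protein Slitrk1 (9.03 and 7.74 against 40.8 and 42.6, 3.70-fold). Podxl did not pass with the mean of its probe sets (log2 difference -0.69, adjusted p = 0.478). Others are the ligand Wnt9a (14.9 and 10.2 against 38.0 and 64.6), the mitochondrial aldehyde dehydrogenase Aldh1b1 (72.2 and 74.8 against 236 and 264), and Sulf1, which trims heparan sulphate (846 and 757 against 1581 and 1553). Tkt, the transketolase of the pentose phosphate pathway, differed by only 1.68-fold (4995 and 4648 against 7945 and 8284) and passed.

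Promoters of the called genes, grouped by the direction of their difference at E12.5, were scanned for short motifs. The RefSeq table used (GRCm38.p6) held a window for 12 of the 17 testis genes and 35 of the 47 ovary genes, and only the 250 bases before the start were searched, on both strands. The GATA motif AGATAA lay in 5 of the 12 testis genes (41.7%), in 4 of the 35 ovary genes (11.4%) and in 6.84% of the 9557 tested genes with a window. The TATA motif TATAAA lay in 3 of 12 testis genes, in 7 of 35 ovary genes (20%) and in 7.83% of tested genes. The forkhead motif GTAAACA, the TCF/LEF motif CTTTGAT, the SOX motif ACAATGG and the NR5A1 motif CAAGGTCA each lay in 0 of the 12 testis genes and in 3, 1, 1 and 1 of the 35 ovary genes. Their shares of tested genes were 2.57%, 2.75%, 2.00% and 1.19%. The homeobox motif CTAATTA lay in 1 testis gene, no ovary gene and 1.02% of tested genes. A match is a string of letters and not a measured binding site, and 7 motifs were searched.

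Windows of 3 testis genes with the GATA motif and of the ovary genes with the largest excess and a TATA motif are shown, 5′ to 3′ along the gene's strand, with the matches of either motif in capitals. No match overlaps another. They are Cstdc1 (chr2:148781759-148782008, plus strand), the second of the table's windows for Gdnf (chr15:7813477-7813726, plus strand), Shbg (chr11:69617906-69618155, minus strand), Sprr2d (chr3:92338890-92339139, plus strand) and Phlda2 (chr7:143502525-143502774, minus strand).
Cstdc1: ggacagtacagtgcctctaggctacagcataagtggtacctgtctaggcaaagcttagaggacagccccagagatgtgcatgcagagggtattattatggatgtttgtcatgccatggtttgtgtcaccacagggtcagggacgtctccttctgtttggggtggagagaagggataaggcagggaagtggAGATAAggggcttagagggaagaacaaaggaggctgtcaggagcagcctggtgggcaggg
Gdnf: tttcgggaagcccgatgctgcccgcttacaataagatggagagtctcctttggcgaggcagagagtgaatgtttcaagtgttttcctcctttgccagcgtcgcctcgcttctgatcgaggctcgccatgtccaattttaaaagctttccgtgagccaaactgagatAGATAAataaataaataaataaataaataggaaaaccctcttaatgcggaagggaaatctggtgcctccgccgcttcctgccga
Shbg: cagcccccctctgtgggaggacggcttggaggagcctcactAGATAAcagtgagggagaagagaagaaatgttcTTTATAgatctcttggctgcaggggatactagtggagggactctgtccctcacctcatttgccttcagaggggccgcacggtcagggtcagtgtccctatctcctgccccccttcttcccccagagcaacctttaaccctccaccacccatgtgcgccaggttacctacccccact
Sprr2d: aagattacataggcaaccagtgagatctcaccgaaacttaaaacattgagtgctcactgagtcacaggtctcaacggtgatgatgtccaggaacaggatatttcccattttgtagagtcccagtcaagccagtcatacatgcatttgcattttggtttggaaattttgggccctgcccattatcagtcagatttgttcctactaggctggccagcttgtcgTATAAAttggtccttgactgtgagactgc
Phlda2: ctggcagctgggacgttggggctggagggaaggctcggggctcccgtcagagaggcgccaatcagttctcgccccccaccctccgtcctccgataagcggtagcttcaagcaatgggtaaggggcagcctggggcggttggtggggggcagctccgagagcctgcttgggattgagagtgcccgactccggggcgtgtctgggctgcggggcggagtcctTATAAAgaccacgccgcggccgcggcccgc
In Sprr2d and Phlda2 the TATA motif begins 29 and 30 bases before the start. In the other window of the testis gene Gdnf, not shown, it begins 31 bases before the start on the gene's strand. In Shbg it lies on the opposite strand, 176 bases before the start. The GATA motif begins 60, 84 and 209 bases before the start in Cstdc1, Gdnf and Shbg.

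Other signalling families had few members past the threshold. In the activin, inhibin and BMP list only Fst passed of 16, toward ovary. Inhbb, the inhibin beta B subunit of Sertoli cells, read 584 and 512 in testis and 157 and 182 in ovary (3.19-fold, limma adjusted p = 0.12). Of 13 FGF and MAPK feedback genes Fgfr2 alone passed, toward ovary, and the list's median log2 difference was -0.05. Of 6 genes of the GDNF family and its receptors Gdnf alone passed; Gfra3 read 25.98 and 26.2 against 43.7 and 82.0 (adjusted p = 0.205). In the retinoic acid list the 2 genes that passed went opposite ways, Aldh1a1 toward testis and Aldh1a3 toward ovary. Cyp26b1, which degrades retinoic acid in the fetal testis, read 138 and 192 against 33.0 and 56.6 (3.51-fold, adjusted p = 0.178).

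Of 10 hedgehog genes 0 passed in limma, with 3 toward testis and 4 toward ovary at an unadjusted p under 0.05. Such values were reached by 4.42% of all autosomal genes toward testis and by 12.1% toward ovary. The ligand Dhh was described above. The pathway's target Hhip read 62.9 and 84.3 in testis and 28.9 and 21.3 in ovary (adjusted p = 0.15) and its receptor and target Ptch1 2704 and 2595 against 1819 and 1963 (adjusted p = 0.21). The effector Gli3 read 339.8 and 334 against 556 and 669 (adjusted p = 0.0621), and the co-receptors Cdon and Boc were also nominally higher in ovary (1.78-fold and 1.79-fold). Of 12 bipotential gonad factors Lhx9 alone passed, and all 12 were below 0 with a median of -0.49; Emx2 read 671 and 621 against 1358 and 1676 (adjusted p = 0.0675). Of 16 basement membrane and cord matrix genes 0 passed, with 2 toward testis and 7 toward ovary at an unadjusted p under 0.05. Lamc1, a laminin chain, read 186 and 184 against 345 and 697, and Col9a1, a collagen of testis cords, 528 and 459 against 316 and 158.

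Cells other than supporting cells gave few calls. For the counts below, 12.1% of all autosomal genes had an unadjusted p under 0.05 toward ovary and 4.42% toward testis. Steroidogenic genes of fetal Leydig cells had 0 of 6 past the threshold and 1 at an unadjusted p under 0.05, with a median log2 difference of 0.50. Hsd3b1 read 185 and 246 in testis and 59.6 and 83.5 in ovary (limma adjusted p = 0.264), Cyp17a1 15.9 and 15.3 against 4.75 and 5.95, Cyp11a1 42.4 and 44.9 against 32.6 and 14.4 and Star 48.0 and 50.5 against 49.2 and 42.6. Insl3 was not among the genes measured. Of 15 meiotic and female germ cell genes 0 passed and 4 had an unadjusted p under 0.05 toward ovary; Rec8 read 4.39 and 4.54 against 11.3 and 8.70 and Smc1b 10.7 and 11.3 against 28.2 and 37.4. Endothelial genes had 0 of 16 past the threshold, a median of -0.53 and 2 at an unadjusted p under 0.05 toward ovary, among them Kdr (120.2 and 130.1 against 225 and 375, adjusted p = 0.0675). Proliferation (0 of 13, median -0.11), interstitial progenitor (0 of 13, median -0.21) and macrophage genes (0 of 12, median -0.29) lay nearer the median of all genes, with 3, 2 and 1 at an unadjusted p under 0.05.

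Of the lists of markers of neighbouring tissue, that of mesonephros and genital ducts had a member past the threshold. Among its 9 genes Cdh16 passed toward ovary, and 6 had an unadjusted p under 0.05 in that direction. Over all autosomal genes that share was 12.1% toward ovary and 4.42% toward testis. The list summed to 730.5 and 750 in testis and to 1291 and 2127 in ovary. Of its members 8 had a log2 difference below 0 and 1 had one above 0 (0.32). Calb1, which is high in ducts, read 71.7 and 69.0 against 235 and 380.3 (limma adjusted p = 0.0504), and Pax8 7.39 and 6.98 against 13.9 and 15.2 (adjusted p = 0.0616). Striated muscle genes went the other way: 0 of 7 passed, 2 had an unadjusted p under 0.05 toward testis, and the sums were 424 and 439 in testis against 154 and 229 in ovary. Actc1, cardiac actin, read 235 and 251 against 45.0 and 80.8 (adjusted p = 0.161). Of 10 chromaffin and sympathetic genes 0 passed and 4 had an unadjusted p under 0.05 toward testis, with sums of 2864 and 2857 against 2321 and 2165. The part of ducts, muscle and adrenal tissue in the genes called was not tested.

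**Figure D3:**
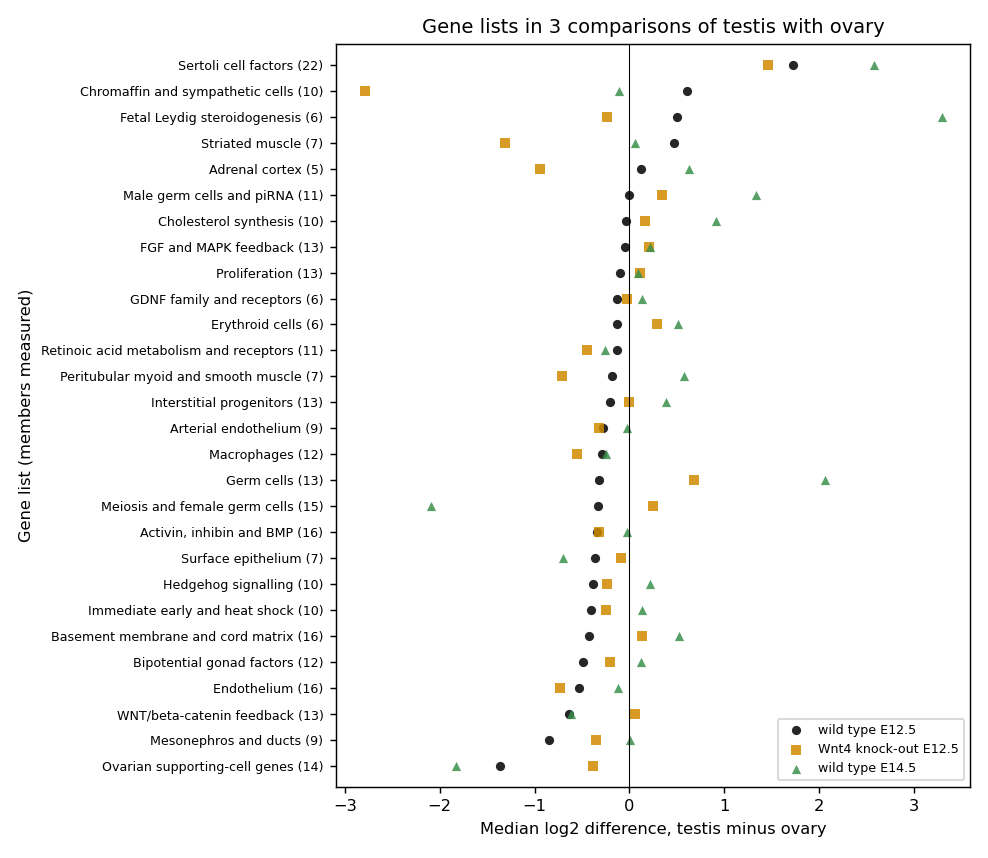
Median log2 difference, testis minus ovary, of each gene list (horizontal axis; the number of members measured is in brackets) in wild type at E12.5 (black circles), Wnt4 knock-out at E12.5 (orange squares) and wild type at E14.5 (green triangles). At E12.5 in wild type the Sertoli list is at 1.73 and the ovarian supporting-cell list at -1.37, and the other lists lie between -0.84 and 0.61.

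The same sexes were compared in Wnt4 knock-out gonads at E12.5. Those arrays entered the values above through the shared estimate of spread, the filter and the choice of probe set. Wnt4 read 413 and 231 in knock-out testis and 839 and 520.2 in knock-out ovary, and where its probe set lies relative to the deletion was not analysed here, so these values check no label. There 128 genes passed (1.08% of those tested), 48 higher in testis (0.405%) and 80 in ovary (0.675%). Y-linked genes put the share of male RNA at 17.9% in knock-out ovary replicate 2, and the 3'/5' ratio was 2.27 in knock-out ovary replicate 1. The count was 25 without that replicate 1 and 1074 without that replicate 2, and 87 and 15 without testis replicates 1 and 2. The part of these array differences was not tested further. Of the 17 genes of wild-type testis, 12 passed in the same direction in the knock-out (70.6% of the 17, and 25% of the 48), with 4 to 13 when 1 knock-out array was left out. Their median log2 difference was 1.70 in wild type and 1.55 in the knock-out. Of the 47 ovary genes, 8 passed in the knock-out (17% of the 47, and 10% of the 80), with 1 to 11 when 1 such array was left out, and the median went from -1.67 to -0.54. The genes were chosen for their size in wild type, so a smaller value elsewhere is partly built in. Over all autosomal genes the median was -0.0562 in the knock-out.

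Cstdc1 (3.12), Adhfe1 (2.44), Cbln4 (2.74), Gdnf (2.34) and Vnn1 (1.80) kept log2 differences in the knock-out that passed the test. Fst, in contrast, read 63.6 and 36.3 in knock-out testis and 81.3 and 55.5 in knock-out ovary, so the sexes overlapped (log2 difference -0.45, limma adjusted p = 0.664). The change of its sex difference between genotypes was 2.85 and did not pass (SE 0.76, adjusted p = 0.316). Msx1 read 29.0 and 23.0 in knock-out testis and 36.3 and 30.7 in knock-out ovary, and Phlda2 6.28 and 5.45 against 8.78 and 5.39. Irx3 (-0.74) and Foxl2 (-0.86) also had smaller values than in wild type, and neither change passed (0.58 and 0.859). Sprr2d kept its difference (-4.23, adjusted p = 0.00349). Lzts1 (-1.28), Adam8 (-1.95) and Runx1 (-0.92) were the other ovary genes named here that passed in the knock-out, beside Podxl (-0.88) and Wnt9a (-1.43).

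The next test and the one between stages also use the 4 wild-type E12.5 arrays that chose the 64 genes. The sex difference at E12.5 differed between genotypes in 13 genes, 3 of them higher (0.0253%) and 10 lower (0.0844%) in the sense of testis minus ovary. The 3 were Phlda2, Msx1 and Cfap161, all from the 47 ovary genes, with changes of 3.28 (SE 0.44, limma adjusted p = 0.0246), 2.36 (0.36, 0.0271) and 2.14 (0.36, 0.0372). Cfap161 read 13.1 and 14.6 in knock-out testis and 10.8 and 14.6 in knock-out ovary. None of the 17 testis genes was among the 13. The 10 lower genes included Th, tyrosine hydroxylase, which read 30.1 and 30.03 in wild-type testis, 15.8 and 13.5 in wild-type ovary, 9.46 and 5.33 in knock-out testis and 127 and 62.1 in knock-out ovary. With the wild-type testis arrays averaged Th alone of the 13 passed. Leaving out 1 array gave between 1 and 67 genes, 67 without knock-out ovary replicate 2, and 2 without wild-type ovary replicate 2.

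**Figure D4:**
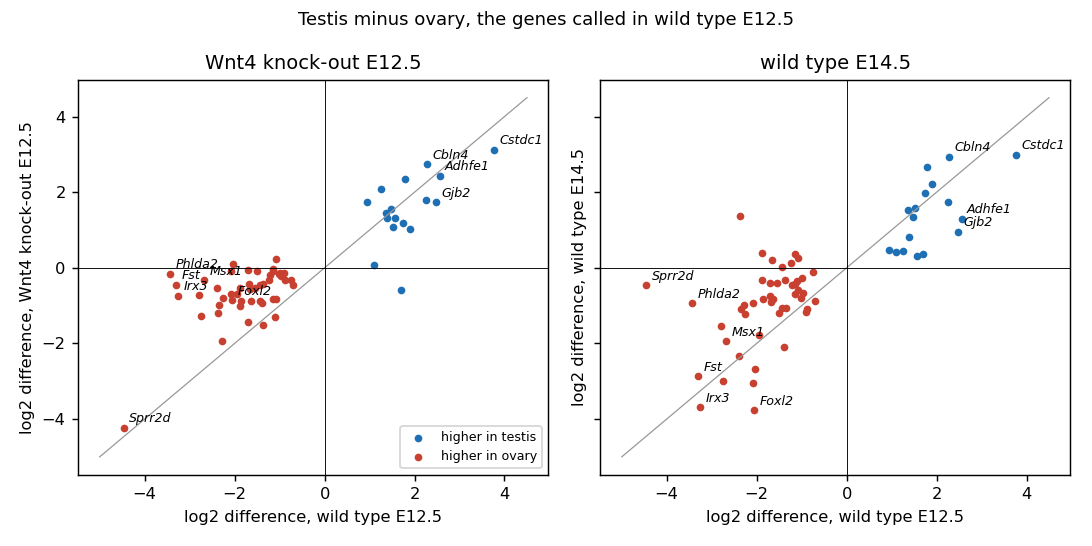
Log2 differences, testis minus ovary, of the 64 genes called in wild type at E12.5 (horizontal axes) against those in Wnt4 knock-out at E12.5 (left) and wild type at E14.5 (right), with genes higher in testis in blue, genes higher in ovary in red and the line of equal values in grey. In the knock-out 45 of 47 red points lie below 0 with a median of -0.54, Sprr2d is near the line, and 16 of 17 blue points stay above 0.

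By E14.5 the sexes of the wild type differed in 438 genes, 263 higher in testis (2.22%) and 175 higher in ovary (1.48%). Xist, which read 1087, put the share of other-sex RNA at 22.8% in testis replicate 2 at this stage. Y-linked genes put it at 19.9% in ovary replicate 2. The count was 176 without that testis array and 858 without that ovary array, and 158 and 83 without testis and ovary replicate 1. Of the 17 testis genes, 10 passed again (58.8% of the 17, and 3.8% of the 263), and 17 of 17 had the same sign. When 1 E14.5 array was left out, 4 to 10 of the 17 and 11 to 18 of the 47 ovary genes below passed. Of the 47 ovary genes, 19 passed again (40.4% of the 47, and 10.9% of the 175), and 40 of 47 had the same sign. Foxl2 read 12.7 and 22.7 in testis and 437 and 184 in ovary at E14.5 (log2 difference -3.77, limma adjusted p = 0.000398). Fst (-2.87), Irx3 (-3.69), Msx1 (-1.94) and Runx1 (-2.08) passed at both stages, as did Cbln4 (2.94), Gdnf (2.66) and Vnn1 (1.73) in testis. Sox9 read 114 and 107 against 11.1 and 56.2 (adjusted p = 0.0435) and Amh 20.2 and 39.6 against 4.21 and 6.17 (adjusted p = 0.00933), both past the threshold by then. The change in the difference from E12.5 was 1.23 for Sox9 (adjusted p = 0.356) and 1.27 for Amh (adjusted p = 0.21), and neither passed.

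The sex difference changed between the stages in 19 genes (0.16%), 14 higher (0.118%) and 5 lower (0.0422%) at E14.5 in the sense of testis minus ovary, and 3 of the 19 were among the 47 ovary genes. Phlda2 was one of them: at E14.5 it read 6.97 and 7.33 in testis and 10.03 and 28.7 in ovary (change 2.49, SE 0.44, limma adjusted p = 0.0467). Tfcp2l1 read 112 and 94.9 in testis and 18.4 and 73.5 in ovary, higher in testis than in ovary but not past the threshold (0.143), and its change passed (3.73, adjusted p = 0.0492). Slitrk1 also moved, to 63.4 and 77.6 against 41.0 and 67.8 (change 2.27, adjusted p = 0.0328). The 3 smallest p belonged to Clps, M1ap and Dmc1, which read below the median of the array in both sexes at E12.5. They passed the filter only through E14.5 arrays, where they were high. Dmc1, a recombinase of meiosis, read 4.55 to 6.75 on all 4 arrays of the earlier stage. By E14.5 it read 9.62 and 12.2 in testis and 398 and 162 in ovary. M1ap, another meiotic gene, read 4.59 to 6.09 on the E12.5 arrays, and later 5.97 and 15.03 in testis with 359.6 and 226 in ovary. Clps, colipase, went from 3.85 and 3.79 against 3.78 and 4.52 to 96.7 and 115 against 4.32 and 10.1, and these were the 3 genes that passed with the testis arrays averaged. Leaving out 1 array gave between 2 and 763 genes, the highest without wild-type ovary replicate 1 at E12.5 and 499 without wild-type ovary replicate 2 at E14.5.

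Several called genes have more than 1 probe set on the chip. For 25 of the 64, 42 further probe sets were measured, and 8 of these had the opposite sign to the one used. Fgfr2 and Cela3b, given above, are among them, while in Fst both probe sets had the same sign.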

How the data were processed

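Per the labels' protocols, 8 ug of total RNA from frozen gonads was labelled for each array. The deposited values are linear intensities of 45101 probe sets. The authors used MAS5, per the submitters' processing notes, whose version and scaling the sources used here do not give. Trimmed means of the arrays differed by at most 1.06-fold, and no further scaling was applied. Tests and fold changes used log2(intensity + 4), which understates the change of dim genes. Probe sets above the array median on at least 2 arrays were kept (25596), each gene was read from its probe set of highest mean, and 12332 genes were tested. Names came from the 2016 platform annotation, with symbols updated through Entrez numbers. All 16 arrays entered 1 model of 8 group means (limma 3.58.1, R 4.3.3), with a variance trend, two-sided, Benjamini-Hochberg adjustment over all genes and a threshold of 0.05; the 11849 autosomal genes are reported. The code was tested on simulated data. The share of male RNA in an ovary array was taken from Y-linked genes relative to testis of its stage, less the lowest ovary reading. That of female RNA in a testis array was taken from Xist in the same way. Neither was tested on other transcripts.

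Genes, the 28 lists and the comparison were chosen with earlier results of these data known. Genes named with values are the 4 markers Fst, Irx3, Cbln4 and Gdnf, Wnt4, the 15 largest calls per direction (leaving out clone names such as those ending in Rik), at most 5 members of each list, those of smallest p, cell type markers, and the 5 smallest p per direction of a change between stages or genotypes. Others are named as chosen after their values were seen. Of 341 list members 297 were measured; 19 of the 28 lists had no member past the threshold. The lists not described above, arterial endothelium (0 of 9), cholesterol synthesis (0 of 10), adrenal cortex (0 of 5), surface epithelium (0 of 7), peritubular myoid and smooth muscle (0 of 7), erythroid cells (0 of 6) and stress genes, immediate early or heat shock (0 of 10), gave no call in limma, with 0, 1, 0, 2, 1, 0 and 2 members at an unadjusted p under 0.05. Promoter windows were read from the RefSeq table of build GRCm38.p6 and figures drawn in Python 3.11.15. The number of arrays limits the precision.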

Additional observations from a re-analysis of the deposited data

Results flagged for a closer look

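Listed here are some of the genes whose difference between testis and ovary differed between stages (19 in all) or genotypes (13 in all) by a test of that change. They are those of the 5 smallest p per direction and any among the 15 largest calls per direction at E12.5. Values are changes of the log2 difference, testis minus ovary, with limma adjusted p. Between E12.5 and E14.5 in wild type, the change was 3.39 for Clps (0.000751), 1.91 for Rrad (0.0129), 1.88 for Galnt5 (0.0129), 1.40 for Aff3 (0.019) and 2.31 for Chp2 (0.0261). It was 2.49 for Phlda2 (0.0467) and 3.73 for Tfcp2l1 (0.0492), both from the genes higher in ovary at E12.5. It was -4.18 for M1ap (0.00356), -3.97 for Dmc1 (0.00533), -2.22 for Ddb2 (0.0129), -2.27 for 1700001L05Rik (0.0261) and -4.64 for Spdya (0.0371).

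Between wild type and Wnt4 knock-out at E12.5, the change was 3.28 for Phlda2 (0.0246), 2.36 for Msx1 (0.0271) and 2.14 for Cfap161 (0.0372). It was -3.92 for Th (0.000815), -4.22 for Scn3b (0.0271), -4.20 for Stmn3 (0.0271), -3.31 for Miat (0.0271) and -2.25 for Disp2 (0.0271). Scn3b, a sodium channel subunit of neurons, read 79.6 and 54.9 in wild-type testis, 37.7 and 14.6 in wild-type ovary, 24.7 and 8.93 in knock-out testis and 195.5 and 97.2 in knock-out ovary. The chromaffin and sympathetic list, which holds Th and Stmn3, had a median log2 difference of 0.61 in wild type and -2.79 in the knock-out. In the knock-out 6 of its 10 genes were higher in ovary, as were 0.675% of all autosomal genes tested. The part of adrenal tissue in these values was not tested.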

How the results depend on the processing

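Results are given in the order main comparison (64 genes at E12.5), change between stages (19) and change between genotypes (13). The counts depend most on single arrays: leaving out 1 array gave 9 to 1506, 2 to 763 and 1 to 67 genes; a lone array is then assumed to vary like the other groups. Alternatives added after seeing the data, leaving out 1 array, gave 15 to 1074 genes in the knock-out (128 with all) and 83 to 858 at E14.5 (438 with all). Averaging the almost identical testis arrays gave 11, 3 and 1. A covariate for other-sex RNA gave 450 and 72, and one for the 3'/5' ratio gave 35 for the main comparison and 28 between genotypes. The stricter filter gave 15, 1 and 0, the last with 350 genes at an unadjusted p under 0.05 in limma. Fitting only the 4 arrays gave 12 (58.3% higher in testis, 7 of the 64 kept); only E12.5 arrays gave 32 and, between genotypes, 0 (682 at an unadjusted p under 0.05); only wild-type arrays gave 4 between stages. The mean of probe sets gave 41, no variance trend gave 3 between genotypes, and between stages quantile normalization gave 9 and a pseudocount of 32 gave 46. Thresholds of 0.01 and 0.10 gave 23 and 172, 3 and 140, and 1 and 20. Apart from the replicate block below, the other alternatives kept each of these counts within 1.5 times. Of the 64 genes, 26.6% were the ones higher in testis, against 17.2% of those called with median centring, which put the median of all genes at -0.19.

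Same-numbered arrays of the sexes did not deviate together (correlations of 0.0833 and 0.0438 at E12.5 in wild type and knock-out, -0.294 and 0.21 at E14.5), so the numbers were not taken to pair them. The replicate number as a block gave 33 genes in the main comparison, 8 between stages and 15 between genotypes. At E14.5 in wild type same-numbered arrays deviated in opposite directions, and a crossed pairing, chosen after seeing the data, gave 30 between stages.

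Of the 42 genes named with values that passed, none changed sign under any alternative that gave it a value (the stricter filter kept 20 of the 42). All 42 still passed without ovary replicate 1, 15 without ovary replicate 2, 11 with the testis arrays averaged and 9 without testis replicate 2. Over all alternatives the adjusted p ran from 0.0012 to 0.187 for Fst, 0.00186 to 0.343 for Irx3, 0.012 to 0.427 for Cbln4 and 0.00197 to 0.471 for Gdnf, and from 0.000138 to 0.035 for Cstdc1, which passed throughout. With a pseudocount of 32, 26 of the 42 log2 differences moved by over 1.5-fold. Among genes that did not pass, Star turned to -0.0196 with quantile normalization, and Ddx4 and Star ran from -0.41 to 0.12 and from -0.000648 to 0.192 when 1 array was left out.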
